A study of Danio rerio with 24 samples.

Results

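The transcripts of 4 transcription factor genes, rfx6 (ENSDARG00000041702), myt1 (ENSDARG00000074030), neurod1 (ENSDARG00000019566) and neurog1 (ENSDARG00000056130), were followed through sorted cells of early zebrafish embryos. They were grouped as endocrine regulators, a name that goes by roles known elsewhere and not by these libraries, since myt1 and neurog1 were highest in non-endodermal cells and were called lower in control endoderm at both stages. They were picked by gene ID from the 33737 genes of the count tables, and all 4 had reads. Embryos of the Tg(sox17:GFP) line, in which the sox17 promoter drives GFP in endoderm, were treated with retinoic acid (RA), BMS493 or the solvent DMSO. Treatment ran from early cleavage to the 3-somite stage. Cells were sorted at the 3-somite stage (3-S), or at the 8-somite stage (8-S) after the compounds had been washed out. GFP+ endodermal cells form the RA, BMS493 and DMSO groups, and GFP- non-endodermal (NE) cells came from the DMSO-treated embryos only. Each of the 4 kinds of cells was measured at both stages in 3 libraries, 24 libraries in 8 groups. No sex or clutch is given for the embryos, and the replicates are not stated to come from separate clutches, so p-values measure only the spread between these libraries.

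RA is made from vitamin A and acts through nuclear receptors that bind DNA near their target genes, and BMS493 is an inverse agonist of these receptors. In the pancreas, endocrine cells arise through a cascade of transcription factors that is also used to make neurons. Rfx6 is a winged-helix factor needed for islet cell formation in mouse and human. Myt1 is a zinc finger factor of endocrine progenitors in mouse and of differentiating neurons. Neurod1 is a basic helix-loop-helix (bHLH) factor of both endocrine cells and neurons. Neurog1 is a proneural bHLH factor that starts sensory neuron formation, and it belongs to the family of Neurog3, the endocrine initiator of the mouse. Since myt1, neurod1 and neurog1 are used by neurons too, their levels in NE cells and those of neural markers are given beside each result.

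Libraries held 9971059 to 17806766 gene counts (median 12791573), and a floor of 3 counts was 1.685e-05% to 3.009e-05% of a library. Such floors cover counting error only, since amplified reads without molecular identifiers are not independent molecules. Levels below are normalised counts, that is reads divided by the size factor of the library, and they are compared between samples but not between genes. All 7 endoderm markers (sox17, sox32, foxa1, foxa2, foxa3, gata5 and cxcr4a) were higher in DMSO than in NE cells at both stages. Between RA and DMSO cells, 0 of these 7 were higher at either stage, whereas 2 were lower at 8-S and 3 at 3-S. All 3 RA-response genes (cyp26a1, dhrs3a and hoxb5b) were higher in RA than in DMSO cells at both stages, and 2 of them were lower in BMS493 than in DMSO cells. Over all genes tested, DESeq2 called (adjusted p under 0.01) 7.22% at 8-S and 7.61% at 3-S between DMSO and NE cells. Between RA and DMSO cells it called 2.7% and 4%, and between BMS493 and DMSO cells 0.376% and 0.168%. The share of reads on the first strand was 49.77% to 50.19% in 8-S libraries and 50.64% to 52.57% in 3-S libraries. No label names a preparation batch, so a difference between stages cannot be told apart from an unlabelled one in handling. In bulk samples, fewer cells of a type and less RNA per cell cannot be told apart.

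rfx6 was a transcript of RA and DMSO endoderm. Its RA 8-S libraries held 67.0, 78.3 and 46.1 normalised counts, and its RA 3-S libraries 80.2, 54.0 and 41.7. DMSO endoderm held 48.6, 38.7 and 7.76 at 8-S, and 0, 25.9 and 11.5 at 3-S. Every RA library held at least 41.7, while DMSO libraries spread widely and 1 of them had no read. BMS493 endoderm had 1.08, 0 and 0 normalised counts at 8-S, and 0, 0 and 3.85 at 3-S. NE cells had 3.995, 1.02 and 0 at 8-S, and 1.04, 0 and 0 at 3-S. Reads of rfx6 were thus nearly lacking in both BMS493 and NE cells, with 1 to 5 reads in each of these groups.

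myt1 had its highest levels in NE cells, with 631.2, 472.7 and 449.4 normalised counts at 8-S and 784.7, 357.1 and 365.4 at 3-S. No endodermal library reached the NE range of its stage. RA 8-S libraries held 83.2, 207.2 and 397.3 normalised counts, and RA 3-S libraries 124.8, 90.4 and 46.0. BMS493 libraries held 32.3, 32.8 and 33.1 at 8-S, and 34.2, 146.4 and 34.7 at 3-S. DMSO libraries held 91.2, 58.0 and 134.8 at 8-S, and 68.5, 76.6 and 57.4 at 3-S. The BMS493 8-S libraries were the lowest of the 24 and nearly alike, with a mean of 32.7 ± 0.39 (SD, n = 3). The related gene myt1b (ENSDARG00000089464), one of the pancreatic regulators listed further below, had another pattern. Its 8-S means were 193.6 in RA, 13.1 in BMS493, 133.1 in DMSO and 102.5 in NE cells. The RA 8-S libraries ran from 29.65 to 298.2, and the lowest lay below every DMSO 8-S (91.18 and above) and NE 8-S library (90.06 and above). At 3-S they were 61.2, 13.5, 36.1 and 90.8 in that order.

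neurod1 was high in both RA and NE cells. RA 8-S libraries held 105.2, 446.2 and 618.1 normalised counts, and RA 3-S libraries 49.9, 351.2 and 241.9. NE libraries held 297.6, 377.9 and 173.9 at 8-S, and 163.6, 340.6 and 190.8 at 3-S, so that the RA and NE ranges overlapped at both stages. DMSO endoderm held 177.7, 50.8 and 63.1 at 8-S, whereas at 3-S no DMSO library had a read. BMS493 endoderm held 0, 3.64 and 54.3 at 8-S, and 1.75, 1.06 and 0.963 at 3-S. Replicate 3 of BMS493 8-S carried nearly all neurod1 reads of its group.

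neurog1 was foremost an NE transcript, with 378.5, 435.0 and 513.6 normalised counts at 8-S and 522.8, 434.2 and 137.2 at 3-S. RA endoderm came next, with 70.8, 198.3 and 226.0 at 8-S and 14.5, 26.1 and 52.0 at 3-S. DMSO endoderm held 47.4, 36.3 and 58.2 at 8-S, and 6.39, 0 and 2.09 at 3-S. At 8-S the RA libraries lay above all DMSO libraries and below all NE libraries. BMS493 endoderm held 7.54, 0.910 and 25.8 at 8-S, and 2.63, 5.31 and 4.81 at 3-S, with replicate 3 again the highest at 8-S.

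**Figure D1:**
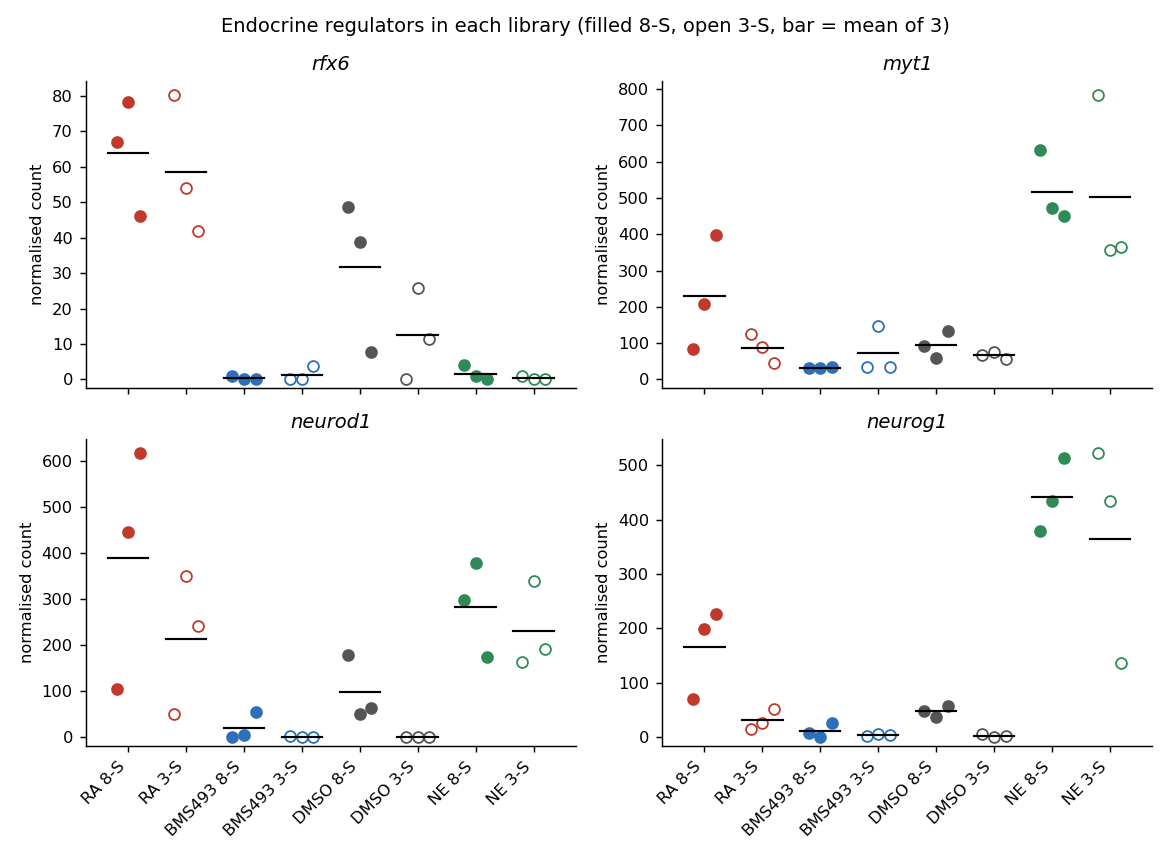
Normalised counts (linear y axis) of rfx6, myt1, neurod1 and neurog1 in each of the 24 libraries, by group, with 8-S filled, 3-S open and a bar at the mean of 3 libraries. rfx6 lies at 3.995 or below in all BMS493 and NE libraries. neurod1 reaches the NE range of its stage in RA replicates 2 and 3 but not in replicate 1, and is 0 in all DMSO 3-S libraries.

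By group mean, rfx6 ran in the order RA 8-S (63.8 ± 16.4), RA 3-S (58.6 ± 19.6), DMSO 8-S (31.7 ± 21.3) and DMSO 3-S (12.5 ± 13.0), followed by the NE and BMS493 groups (SD, n = 3 each). Each neighbour in that order overlapped the next. For neurod1 the order was RA 8-S (389.8 ± 261.1), NE 8-S (283.1 ± 102.8), NE 3-S (231.6 ± 95.3), RA 3-S (214.3 ± 152.5) and DMSO 8-S (97.2 ± 70.0), again with overlapping neighbours. For neurog1 the NE groups (442.4 ± 67.9 at 8-S and 364.7 ± 202.0 at 3-S) were followed by RA 8-S (165.0 ± 82.8), which did not overlap DMSO 8-S (47.3 ± 10.98). For myt1 the 2 NE groups (517.8 ± 98.9 at 8-S and 502.4 ± 244.5 at 3-S) were followed by RA 8-S (229.2 ± 158.2), and of all neighbours only DMSO 3-S (67.5 ± 9.62) and BMS493 8-S did not overlap.

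DMSO endoderm was compared with NE cells to ask which of the genes are enriched in untreated endoderm. Of the members, only rfx6 was higher in DMSO than in NE cells, and the neuronal factors were lower. At 3-S all 4 members were called by DESeq2 (adjusted p under 0.01), 1 higher and 3 lower, where 7.61% of the 19537 genes tested were called (4.24% higher and 3.37% lower). rfx6 had 36 reads in the DMSO 3-S libraries and 1 in the NE 3-S libraries, a ratio of 35.6 with a counting interval of 6 to 1450 (95%). DESeq2 gave rfx6 a difference of 5.10 on the log2 scale (SE 1.51) at an adjusted p of 0.00976, close to the threshold. The groups overlapped, and with the replicate number as a block the adjusted p was 0.0103, no longer a call. By edgeR it was not called either, nor when only the DMSO and NE 3-S libraries were fitted (DESeq2 adjusted p 0.0507). Without DMSO 3-S replicate 2 the DESeq2 adjusted p was 0.0953, and in 5 of the 6 fits that left out 1 library the call was lost. neurod1 was at least 77.4-fold lower in DMSO 3-S cells (DESeq2 adjusted p 7.4e-09), neurog1 changed by -6.97 on the log2 scale (SE 0.81, adjusted p 1.61e-15) and myt1 by -2.90 (SE 0.55, adjusted p 4.86e-06). For these 3 genes the groups did not overlap, and none of the alternative fits lost a call. Overlap is given as a description here and below, since the share of all genes without overlap was not counted.

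At 8-S the pattern was alike for rfx6, myt1 and neurog1, while neurod1 was not called. DESeq2 called 3 members, 1 higher and 2 lower, where 7.22% of 18406 genes were called (4.42% higher and 2.8% lower). rfx6 had 81 reads in DMSO 8-S and 5 in NE 8-S cells, a ratio of 18.6 (interval 7.65 to 58.8, DESeq2 adjusted p 0.00296). myt1 had a log2 fold change of -2.45 (SE 0.55, adjusted p 0.000214) and neurog1 one of -3.22 (SE 0.66, adjusted p 3.72e-05). For neurod1 the groups overlapped, and the log2 fold change was -1.54 (95% interval -3.65 to 0.56, DESeq2 adjusted p 0.416). The rfx6 call was lost without any single one of DMSO replicates 1 and 2 and NE replicates 2 and 3 (adjusted p 0.0214 to 0.0307). The median of all genes stood at -0.11 on the log2 scale in this comparison.

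RA-treated endoderm was compared with DMSO endoderm to ask which genes respond to added RA. At 3-S, neurod1 and neurog1 were higher in RA than in DMSO cells. DESeq2 called these 2 of the 4 members, both higher, where 4% of 19537 genes were called and 1.87% were called higher. neurod1 was at least 71.7-fold higher in RA 3-S cells (DESeq2 adjusted p 1.82e-08), with 699 reads in 3 RA libraries and 0 in 3 DMSO libraries. That bound is for the RA group mean, and the lowest RA 3-S library held 49.9 normalised counts. neurog1 had 100 reads in RA 3-S and 9 in DMSO 3-S cells, a ratio of 11.2 (interval 5.65 to 25.1), and by DESeq2 it was 3.42 higher on the log2 scale (SE 0.82, adjusted p 0.0012). The groups of both genes did not overlap. The neurod1 call held in every alternative fit, whereas that of neurog1 was lost without RA replicate 3, DMSO replicate 2 or DMSO replicate 3 (adjusted p 0.0136 to 0.0302), and when only RA and DMSO 3-S libraries were fitted (adjusted p 0.0214).

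rfx6 and myt1 were not called with RA at 3-S. All 3 RA libraries had more rfx6 (41.7 to 80.2) than any DMSO library (0 to 25.9), but the log2 fold change of 2.24 (95% interval 0.37 to 4.11) had a DESeq2 adjusted p of 0.174. The myt1 groups overlapped, with a log2 fold change of 0.36 (95% interval -0.72 to 1.45, DESeq2 adjusted p 0.866).

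At 8-S, after the wash, DESeq2 called 0 of the 4 members between RA and DMSO cells, where 2.7% of 17841 genes were called. edgeR likewise called 0, and 2 members had an unadjusted p under 0.05. The share of all genes under that p was not counted, here or in later comparisons. The fitted log2 fold changes were all above 0, at 1.01 for rfx6, 1.27 for myt1, 2.00 for neurod1 and 1.80 for neurog1. The neurog1 groups did not overlap (95% interval 0.51 to 3.10, DESeq2 adjusted p 0.112), and this gene was called when only these 2 groups were fitted (adjusted p 0.00959). The interval of rfx6 (-0.82 to 2.85) covers both lower and higher levels with RA, and that of neurod1 (-0.10 to 4.11) runs from near no change to several-fold higher. Without RA 8-S replicate 3, the library with the most myt1, neurod1 and neurog1, the fold change of myt1 was 0.62 on the log2 scale and its adjusted p 0.831.

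**Figure D2:**
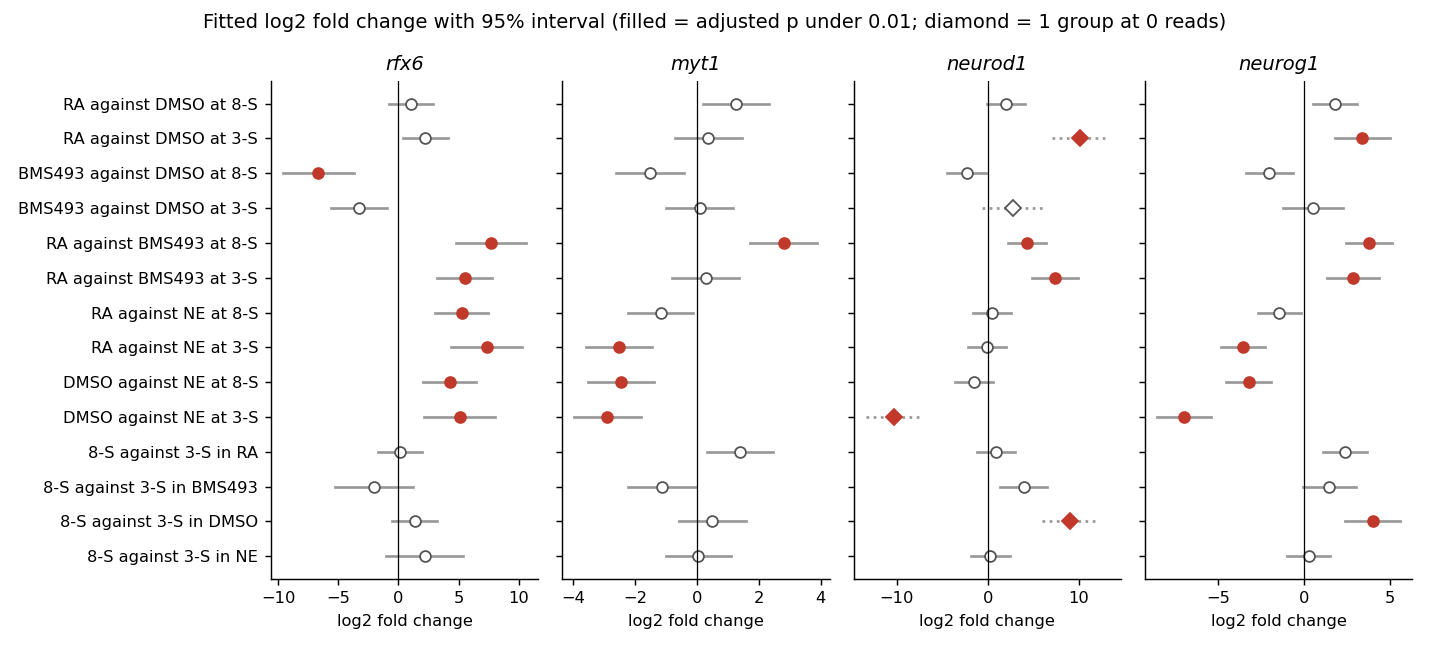
Fitted log2 fold change (linear x axis) with its 95% interval for each member in 14 comparisons, first-named group over second, filled where the DESeq2 adjusted p was under 0.01. Diamonds with dotted intervals mark fits against a group with 0 reads, whose size depends on the fit and is no bound. RA against BMS493 holds 7 of 8 possible calls, and rfx6 is on the right in all 4 comparisons with NE cells.

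BMS493 endoderm was set against DMSO endoderm to ask which genes need endogenous RA signalling. At 3-S, DESeq2 and edgeR each called 0 of the 4 members, where 0.168% of 17841 genes were called, and 1 member, rfx6, had an unadjusted p under 0.05. rfx6 had 4 reads in BMS493 3-S and 36 in DMSO 3-S cells, a 9.31-fold lower summed level (interval 3.34 to 36) that overlapped between the groups, at a DESeq2 adjusted p of 0.455. neurod1 had 4 reads in BMS493 3-S and 0 in DMSO 3-S cells, both at the floor. neurog1 was low in both groups, with 13 reads in BMS493 3-S and 9 in DMSO 3-S cells, a ratio of 1.40 (interval 0.552 to 3.70).

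At 8-S rfx6 was the only member called between BMS493 and DMSO cells. DESeq2 called this 1 member, lower, where 0.376% of 17276 genes were called (0.37% lower). rfx6 had 1 read in 3 BMS493 libraries and 81 reads in 3 DMSO libraries, a ratio of 106 with a wide interval (18.5 to 4240), and the DESeq2 log2 fold change was -6.67 (SE 1.502, adjusted p 0.00275). The groups did not overlap, yet the call was lost without BMS493 replicate 2 or 3 or DMSO replicate 1 or 2 (adjusted p 0.0148 to 0.0958). All 4 members had an unadjusted p under 0.05, with log2 fold changes below 0, but no share of all genes stands beside that count. myt1 (-1.53, DESeq2 adjusted p 0.447) and neurog1 (-2.01, adjusted p 0.343) did not overlap between the groups, while neurod1 (-2.31, adjusted p 0.886) overlapped through BMS493 replicate 3. Without that library, neurod1 (-5.66, DESeq2 adjusted p 6.92e-05) and neurog1 (-3.54, adjusted p 0.00401) were called and rfx6 (-5.98, adjusted p 0.0958) was not.

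RA endoderm was also set against BMS493 endoderm, the widest contrast of RA signalling in the series, to see the members over the whole range. At 8-S all 4 members were higher in RA cells (DESeq2, 5.06% of 18971 genes called, 2.59% higher). No pair of groups overlapped, though non-overlap was not counted over all genes. The log2 fold changes were 7.68 for rfx6 (SE 1.497, adjusted p 1.38e-05), 2.81 for myt1 (SE 0.56, adjusted p 2.08e-05), 4.32 for neurod1 (SE 1.09, adjusted p 0.00182) and 3.81 for neurog1 (SE 0.69, adjusted p 1.61e-06). The summed rfx6 level was 223-fold higher in RA 8-S cells (interval 39.6 to 8850), against 1 read with BMS493. The neurod1 call was lost without RA replicate 2 or 3 or BMS493 replicate 2 (DESeq2 adjusted p 0.0154 to 0.036), and when only these 2 groups were fitted (0.158).

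At 3-S, 3 of the 4 members were higher in RA than in BMS493 cells by DESeq2, where 5.78% of 18971 genes were called (2.96% higher). rfx6 was 43.6-fold higher by summed reads (interval 16.7 to 162, DESeq2 adjusted p 9.28e-05) and neurod1 181-fold higher (interval 70.5 to 668, adjusted p 6.06e-07). By DESeq2, neurog1 was 2.88 higher on the log2 scale (SE 0.77, adjusted p 0.00397). This call was lost without RA replicate 3 or any 1 BMS493 library (adjusted p 0.0127 to 0.0714), and when only these 2 groups were fitted (0.0194). myt1 overlapped, with a log2 fold change of 0.28 (95% interval -0.81 to 1.36) and 1 BMS493 library, replicate 2, above all RA libraries. RA against BMS493, RA against DMSO and BMS493 against DMSO share their libraries, so that their values do not stand as separate evidence.

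RA endoderm was set against NE cells to place the members relative to cells that hold the neural plate. At 8-S only rfx6 was called, higher in RA cells (log2 fold change 5.28, SE 1.12, DESeq2 adjusted p 6.38e-05), where 8.4% of 18971 genes were called (4.91% higher). myt1 (-1.17, DESeq2 adjusted p 0.159) and neurog1 (-1.42, adjusted p 0.154) lay below NE cells in all RA 8-S libraries without a call. At 3-S, where 9.41% of 19537 genes were called (5.44% higher and 3.98% lower), rfx6 was higher (167-fold by summed reads, interval 29.5 to 6630, adjusted p 2.15e-05 by DESeq2). myt1 (-2.53, SE 0.55, DESeq2 adjusted p 7.03e-05) and neurog1 (-3.55, SE 0.66, adjusted p 2.37e-06) were lower in RA 3-S than in NE 3-S cells. For neurod1 the log2 fold change between RA and NE cells was 0.46 at 8-S (95% interval -1.64 to 2.56) and -0.11 at 3-S (-2.21 to 1.99). These intervals span several-fold in both directions.

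Between stages, neurod1 and neurog1 were higher at 8-S than at 3-S in DMSO endoderm, the 2 members that DESeq2 called there, where 0.293% of 15018 genes were called (0.246% higher). neurod1 was at least 32.5-fold higher at 8-S (257 reads against 0, DESeq2 adjusted p 6.69e-05). neurog1 had 130 reads at 8-S and 9 at 3-S, a ratio of 16.1 (interval 8.25 to 36.1, DESeq2 adjusted p 0.0012), and its call was lost without DMSO 3-S replicate 2 or 3 or DMSO 8-S replicate 3 (adjusted p 0.0127 to 0.026). Neither pair of groups overlapped. A few listed genes of other tissues were also higher in the same comparison by DESeq2, namely the neural gene pax6a (41.6 at 8-S and 6.85 at 3-S), the mesoderm gene msgn1 (2895 and 399.4) and the muscle gene myod1 (54.1 and 2.76), the only ones called of 18 neural and 13 mesoderm, crest and epidermis markers. The median log2 fold change was 0.76 for the neural list and 1.59 for the other, beside -0.01 over all genes. The part of other tissues in the rise of neurod1 and neurog1 was not tested.

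In RA, BMS493 and NE cells, DESeq2 and edgeR each called 0 of the 4 members between stages. The DESeq2 background was 0.0929% of 16146 genes in RA, 0.0216% of 13888 in BMS493 and 0.0141% of 21232 in NE cells. Members with an unadjusted p under 0.05 numbered 2 in RA, 2 in BMS493 and 0 in NE cells, and the share of all genes under that p was not counted. neurog1 came nearest, with all 3 RA 8-S libraries above all RA 3-S libraries and a log2 fold change of 2.41 (95% interval 1.11 to 3.71, DESeq2 adjusted p 0.0566). Of 18 neural markers, only elavl3 was called in RA cells, higher at 8-S (mean 120.3) than at 3-S (6.42). Its log2 fold change was 4.26 (SE 0.82, DESeq2 adjusted p 0.00122). Median log2 fold changes in RA cells were 1.09 for neural and 1.61 for mesoderm, crest and epidermis markers, beside 0.01 over all genes. Of 17 endocrine and pancreatic regulators tested there, only mnx1 was called, lower at 8-S (682.4) than at 3-S (1860). The part of neuronal RNA in the neurog1 values was not tested. Since the 8-S embryos had also been washed, developmental stage cannot be told apart from the time after treatment.

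Whether the effect of RA or of BMS493 differed between stages was tested as an interaction. DESeq2 called 0 of the 4 members for RA (0.0105% of 18971 genes called) and 0 for BMS493 (0% of 29144), as did edgeR, with 1 and 3 members at an unadjusted p under 0.05. No share of all genes under that unadjusted p was counted. The RA effect on neurod1 was at least 71.7-fold at 3-S, a linear bound against the floor. At 8-S it was an uncalled fitted log2 fold change of 2.00, so the values are on unlike scales. The difference between the stages had a DESeq2 adjusted p of 0.0576. When only the 4 groups involved were fitted, that adjusted p was 0.00406. The mean neurod1 level in DMSO cells was 97.2 at 8-S and 0 at 3-S.

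Neural RNA in the GFP+ libraries was gauged from NE cells of the same stage, by giving each normalised count as a percentage of the mean of the 3 NE libraries. The gauge held 17 of the 18 neural plate and neuron markers that could be matched, those with an NE mean of at least 20. In RA libraries neurod1 reached 37.2, 158 and 218% of the NE mean at 8-S, and 21.6, 152 and 104% at 3-S. The median of the 17 neural markers in the same RA libraries was 1.92, 1.76 and 4.44% at 8-S, and 0.922, 0.918 and 2.05% at 3-S. In replicates 2 and 3 of both stages neurod1 stood above every one of the 17 markers, whose highest were 38.6 and 45.1% at 8-S and 66.6 and 38.3% at 3-S. In replicate 1, sox3 (44.7% at 8-S) and six3a (177% at 3-S) stood above it. By the same measure, 12 Notch pathway and neuronal bHLH genes had medians of 54.8, 72.6 and 67.8% in RA 8-S libraries. In RA 3-S libraries their medians were 37.3, 49.6 and 46.8%. The highest of them stood at 167, 291 and 462% at 8-S, and at 286, 140 and 183% at 3-S. That highest value lay above neurod1 in each RA library except RA 3-S replicate 2.

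neurog1 reached 16, 44.8 and 51.1% of the NE mean in RA 8-S libraries and 3.96, 7.15 and 14.2% in RA 3-S libraries, above the marker median in each. myt1 reached 16.1, 40 and 76.7% in RA 8-S libraries and 24.8, 18 and 9.16% in RA 3-S libraries. rfx6 has no such gauge, since NE libraries held at most 3.995 normalised counts of it, below each RA library (41.7 to 80.2). Between RA and DMSO cells more of the neural markers fell than rose, with 0 higher and 8 lower of 18 at 8-S (median log2 fold change -2.15) and 1 higher and 7 lower at 3-S (median -2.05), beside medians of 0.04 and 0.01 over all genes. Over all genes tested, 2.7% were called in either direction at 8-S and 4% at 3-S. The 3 largest falls at both stages were in otx1a, otx1b and otx2, homeobox genes of the anterior embryo. The gene taken as otx1a, ENSDARG00000030703, is so named by the study, while its supplied symbol is otx2a. In DMSO libraries otx2 stood at 28.9 to 101% of the NE mean and otx1a at 77.2 to 129%, while otx1b, with NE means of 10.9 at 8-S and 17.6 at 3-S, is the marker that the gauge leaves out. The 1 that rose was six3a, an anterior homeobox gene, with a mean of 180.0 normalised counts in RA 3-S and 5.12 in DMSO 3-S cells.

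Single neuronal genes did move with neurod1, neurog1 and myt1, but not with rfx6, among the RA 8-S libraries. The neuronal RNA-binding protein gene elavl3 stood at 4.12, 22.2 and 27.2% of the NE mean in RA 8-S replicates 1, 2 and 3, and at 2.55, 0.678 and 1.45% in the RA 3-S libraries. The neuronal bHLH gene neurod4 stood at 0, 16.5 and 45.3% in RA 8-S libraries, against 1.18, 3.34 and 10.7% in RA 3-S libraries. Replicate 3 of RA 8-S also had the most tfap2a (36.1%), an ectoderm and neural crest gene, and sox10 (21.4%), a neural crest gene, and the median of the 13 mesoderm, crest and epidermis markers was 16.4% there and 2.88 and 3.34% in the other two. neurod1, neurog1 and myt1 were highest in this library and lowest in replicate 1, while rfx6 was lowest in it. The genes singled out in these sentences were chosen after their values were seen, and the part of neuronal RNA in the levels of the members was not tested.

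In DMSO 3-S libraries the 17 markers had medians of 2.19, 5.44 and 4.95% of the NE mean, with 1 or 2 of them at 0 in each library, and neurod1 had no read. neurog1 (1.75, 0 and 0.572%) lay below the marker median in each of these libraries, and myt1 (13.6, 15.2 and 11.4%) above it. In DMSO 8-S libraries the marker medians were 9.43, 10.3 and 16.4%. There neurod1 stood at 62.8, 17.9 and 22.3%, above the marker median in each library. neurog1 stood at 10.7, 8.19 and 13.2%, above the median in 1 of 3 libraries, and myt1 at 17.6, 11.2 and 26%. In BMS493 8-S libraries the marker medians were 7.09, 13.8 and 12.2% and neurod1 stood at 0, 1.29 and 19.2%, so that 2 of the 3 lay below the median. neurog1 (1.7, 0.206 and 5.84%) and myt1 (6.24, 6.33 and 6.39%) lay below the median in each of these libraries. In BMS493 3-S libraries neurod1 stood at 0.416 to 0.757% and neurog1 at 0.721 to 1.45%, below marker medians of 2.57 to 3.69%. myt1 stood at 6.8, 29.1 and 6.9% in the same libraries, above the marker median in each. NE cells of RA-treated or BMS493-treated embryos were not analysed here, so each percentage is set against NE cells of DMSO-treated embryos. The effect of RA on the markers within neural cells was not tested. A low marker median in RA libraries thus sets no upper limit on their neural RNA. Of the markers, sox3 had means in DMSO endoderm near those of NE cells (4644 against 4159 at 8-S, 2868 against 3196 at 3-S).

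**Figure D3:**
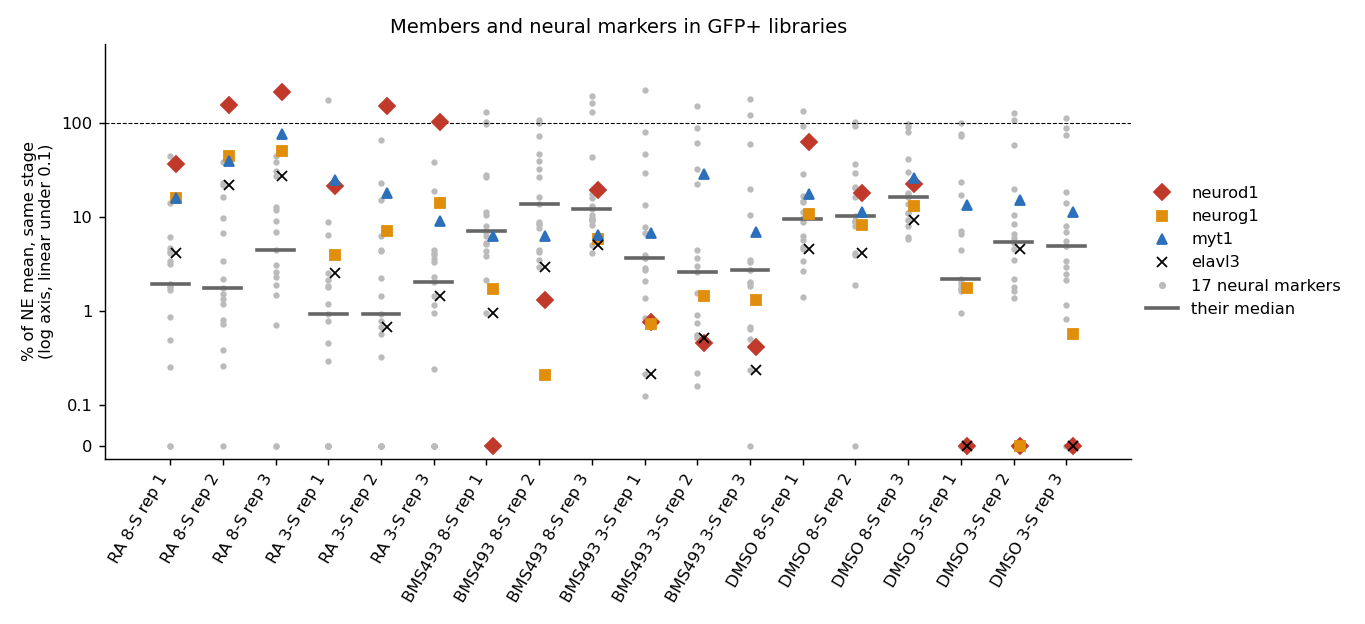
Level in each of the 18 GFP+ libraries as a percentage of the NE mean of the same stage (log y axis, linear below 0.1), with 17 neural markers in grey, their median as a bar, elavl3, one of them, as a cross, and neurod1, neurog1 and myt1 as coloured points. In RA libraries neurod1 lies between 21.6 and 218% while the marker median is 0.918 to 4.44%, and in DMSO 3-S libraries neurod1 is at 0. The NE cells came from DMSO-treated embryos, and the effect of RA on the markers within neural cells was not tested.

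Of 25 further endocrine and pancreatic regulators listed, 19 could be matched by name to a gene ID of the tables, and the other 6 were not analysed here. Between RA and DMSO cells, 3 of the 17 tested were higher and 2 lower at 8-S (median log2 fold change 0.76), and 8 of 19 were higher and 3 lower at 3-S (median 1.12), beside medians of 0.04 and 0.01 over all genes. Over all genes tested, 2.7% were called at 8-S and 4% at 3-S (1.87% higher). The largest rises at 3-S were in ascl1a, a proneural bHLH gene (log2 fold change 4.01, SE 0.65), nr5a2, a nuclear receptor gene of endoderm and pancreas (2.52, SE 0.30), and hnf4a, a nuclear receptor gene of gut and liver (2.29, SE 0.53). ascl1a was also the largest rise at 8-S (2.49, SE 0.59), followed by insm1b, a zinc finger gene of endocrine and neural progenitors (1.87, SE 0.46), and hnf1ba, a homeobox gene of early gut endoderm (1.29, SE 0.24). The LIM homeobox gene isl1, used by islet cells and neurons, was lower with RA at 8-S (-2.91, SE 0.36) and at 3-S (-3.24, SE 0.36). The other called falls were in mafba at 8-S (-3.01, SE 0.79, with overlapping groups), and in nkx2.2a (-3.04, SE 0.67) and nkx6.2 (-2.57, SE 0.54) at 3-S. The list thus held called changes in both directions.

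With BMS493, 0 of the 17 tested regulators were higher at either stage, whereas 7 were lower at 8-S (median log2 fold change -1.21) and 3 at 3-S (median -0.29), beside medians of 0.02 and 0 over all genes. Of all genes tested, 0.376% at 8-S and 0.168% at 3-S were called in either direction between BMS493 and DMSO cells. At 8-S the largest falls were in insm1a, a paralogue of insm1b (0.221 normalised counts in BMS493 and 181.1 in DMSO cells), ascl1b, which acts at the start of the endocrine lineage in zebrafish (13.1 and 622.0), and pdx1, the pancreas and duodenum homeobox gene (6.82 and 280.3). At 3-S they were in insm1a (2.61 in BMS493 and 94.7 in DMSO cells), ascl1b (17.9 and 296.4) and gata6, a zinc finger gene of endoderm (157.1 and 1506). The fitted change of rfx6 was below 0 at both stages and was called at 8-S.

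**Figure D4:**
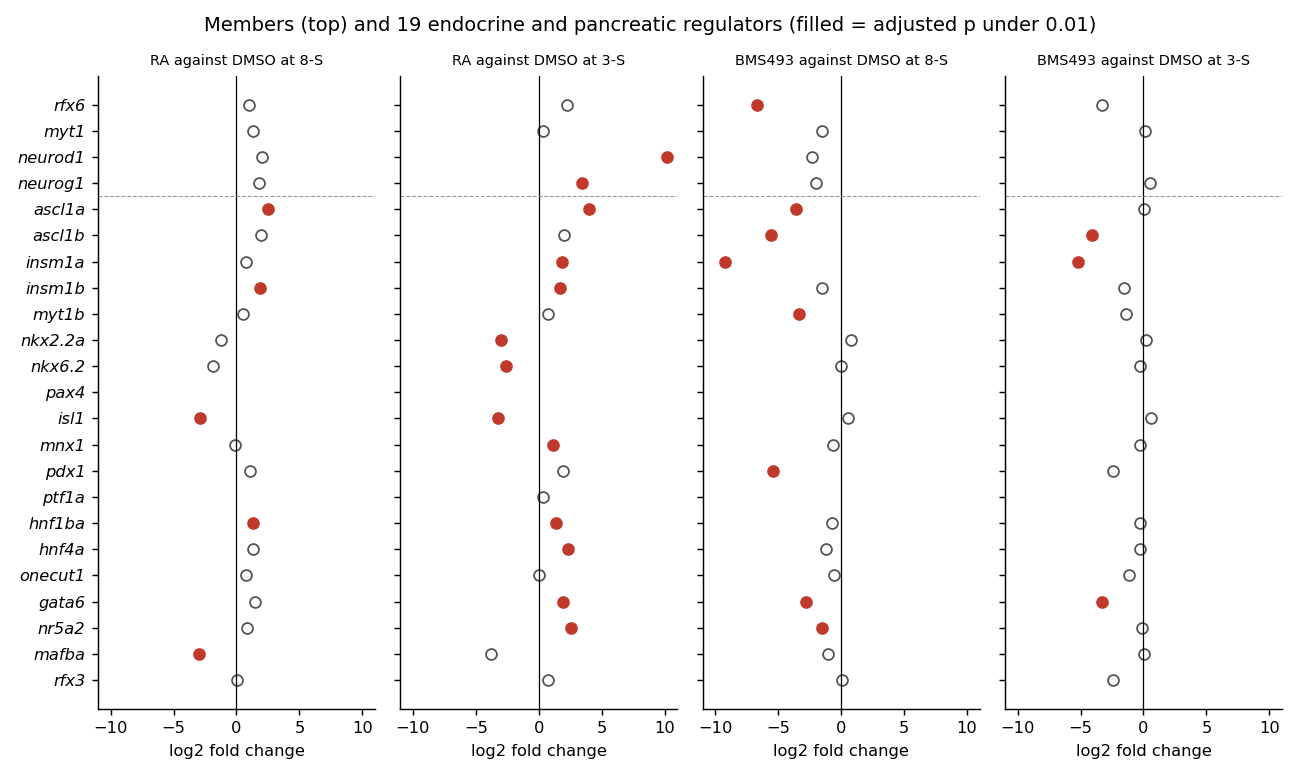
Fitted log2 fold change (linear x axis) of the 4 members, above the dashed line, and of 19 endocrine and pancreatic regulators in RA or BMS493 against DMSO cells at each stage, filled where the DESeq2 adjusted p was under 0.01. Genes with no adjusted p are left blank, as are uncalled fits against a group with 0 reads. All called points lie left of 0 with BMS493, and both sides hold called points with RA.

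The members were also compared by their pattern over all 24 libraries, as the Pearson r of log2 normalised counts with a pseudocount of 1, among 12443 genes with a mean of at least 20. These libraries share groups and sorting, and r is given as a description only. neurod1 and neurog1 were most alike (r = 0.88 over 24 libraries and 0.89 over the 18 GFP+ libraries). Next came myt1 and neurog1 over 24 libraries (0.81), and rfx6 and neurod1 over the GFP+ libraries (0.68, beside 0.59 for myt1 and neurog1). rfx6 was unlike the other members over all libraries (r = -0.08 with myt1, 0.31 with neurod1 and 0.02 with neurog1), and more like them among GFP+ libraries (0.53, 0.68 and 0.57).

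Nearest to rfx6 were EPB41L4A (ENSDARG00000040087, r = 0.93), fgd4b (ENSDARG00000060248, 0.92), the unnamed ENSDARG00000075168 (0.90), HMGA2 (ENSDARG00000069912, 0.90) and IQGAP2 (ENSDARG00000060010, 0.90). fgd4b, a gene for a guanine nucleotide exchange factor, had means of 119.8 normalised counts in RA 8-S, 0.221 in BMS493 8-S, 20.7 in DMSO 8-S and 0.666 in NE 8-S cells. Nearest to myt1 was dlb, a Notch ligand gene (ENSDARG00000004232, r = 0.89), followed by RASSF8 (ENSDARG00000045485), kalrnb (ENSDARG00000063538), myh14 (ENSDARG00000073732) and SEPTIN5 (ENSDARG00000013843), at 0.88 to 0.89. Over the 18 GFP+ libraries r with myt1 was lower, at 0.77 for dlb and 0.65 to 0.72 for the others. For the genes near rfx6 it was 0.87 to 0.93 there. dlb had means of 179.3 in RA 8-S, 27.7 in BMS493 8-S, 132.2 in DMSO 8-S and 408.5 in NE 8-S cells.

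Nearest to neurod1 were the unnamed ENSDARG00000092988 (r = 0.90), ppap2d (ENSDARG00000069940, 0.89), lgals3b (ENSDARG00000044001, 0.89), SH2D3C (ENSDARG00000028099, 0.88) and DRGX (ENSDARG00000069329, 0.88). Nearest to neurog1 were pou3f3b (ENSDARG00000095896, r = 0.92), a POU homeobox gene of the neural tube, a Hes-family bHLH gene, HES6 (ENSDARG00000007097, 0.92), DRGX (0.91), TCF15 (ENSDARG00000067544, 0.89) and tfap2a (ENSDARG00000059279, 0.89). Over the GFP+ libraries r was 0.87 to 0.91 for the genes near neurod1 and 0.78 to 0.88 for those near neurog1. DRGX, a homeobox gene of sensory neurons in mouse, was the one gene near both neurod1 and neurog1. It had 30.6, 48.6 and 144.3 normalised counts in RA 8-S cells, against 46.0, 24.2 and 15.3 in RA 3-S cells. BMS493 8-S libraries held 0, 1.82 and 29.1 of DRGX, with replicate 3 the highest as for neurod1 and neurog1. DRGX was picked by r over these same libraries, so this likeness is no separate evidence. NE libraries held 411.5, 273.0 and 256.8 at 8-S, above all RA 8-S libraries.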

How the data were processed

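cDNA of sorted cells was primed with oligo-dT and made into Nextera XT libraries, and the authors aligned reads with STAR (version 2.5.4 in the submitters' processing notes) to the Zv9 genome with Ensembl annotation. The deposited values are raw read counts per gene from the authors, of which the unstranded column was used here and 2 strand columns as an alternative. Rows that name no gene were left out. Reads of genes overlapping on either strand are left out of the unstranded column, and the strand columns add 4.07% of reads for myt1 and 0% for the other 3 members. Symbols came from a supplied table of gene IDs. Listed genes were matched by the ID the study pairs with the name where it gives one, and otherwise by symbol.

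Groups and replicate numbers came from sample titles. Every comparison was a DESeq2 (1.42.0, R 4.3.3) Wald test in 1 fit of 24 libraries on group alone, with the tool's own size factors, Cook's filter and independent filtering at their defaults. Adjustment was by Benjamini-Hochberg over all genes, and calls were made at an adjusted p under 0.01, as in the study's methods. Ratios of summed reads are scaled by size factors, with exact binomial 95% intervals that cover counting error only. A fold against a group at 0 reads is a lower bound, the mean of the other group over 3 counts per library. It leaves out the spread of that other group. Alternatives were edgeR (4.0.16) quasi-likelihood, TMM and total-count size factors, a filter of 10 counts in 3 libraries, the replicate block, only the groups compared, no filtering, summed strand columns and leaving out each library. Functions were tested on simulated data. Chi-square per degree of freedom between the 24 replicate pairs was 17.5 to 160, above what a repeated deposit would give.

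Same-numbered DMSO and NE libraries deviated together (r of deviations from group means 0.69, 0.59 and 0.48 at 3-S, 0.23, 0.22 and 0.37 at 8-S), though the labels give no source for this pairing. Apart from sox3, myt1b and the genes said to be chosen after their values were seen, listed genes named by value follow a fixed rule. They are up to 3 called genes per list and direction with the largest fold change and a mean of at least 10 normalised counts. Near genes are the 5 with the highest r. The members and lists were chosen with earlier results of these data known. No promoter, protein or coordinate was used here.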

Additional observations from a re-analysis of the deposited data

How the results depend on the processing

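Over 938 alternative values of the 4 members in 16 comparisons, 880 kept their direction and their side of the threshold, 34 lost a call, 4 gained one and 20 changed sign, and 6 more fits gave no adjusted p. No value that was called changed sign. With the replicate block, the call of rfx6 in DMSO against NE cells at 3-S (log2 fold change 5.19, adjusted p 0.0103) was lost, which left 3 of the 4 members there. The block changed no other member's call, and it moved a count over all genes by more than 1.5 times only for 8-S against 3-S in RA (8 with the block, 15 without it). It fits a replicate effect shared by all 8 groups, so it does not test the pairing of DMSO and NE libraries alone. With only the groups compared in the fit, members called numbered 1 in RA against DMSO at 3-S (2 with all 24 libraries), 1 in RA against DMSO at 8-S (0 with all) and 1 for the RA effect between stages (0 with all). That setting also lost the calls of rfx6 in DMSO against NE cells at 3-S (adjusted p 0.0507), neurog1 in RA against BMS493 at 3-S (0.0194) and neurod1 in RA against BMS493 at 8-S (0.158), which left 3, 2 and 3 members called. The call of rfx6 in DMSO against NE cells at 3-S was lost as well with edgeR (0.0137), total-count size factors (0.0108) and no filtering (0.0146).

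Leaving out 1 library gave 1 to 2 members called in RA against DMSO at 3-S, 0 to 2 in BMS493 against DMSO at 8-S and 1 to 2 in 8-S against 3-S in DMSO. Uncalled log2 fold changes that changed sign ranged from -0.97 to 0.42 for myt1 and from -0.028 to 2.02 for neurog1 in BMS493 against DMSO at 3-S, and from -0.069 to 1.33 for myt1 in RA against BMS493 at 3-S. For neurod1 in RA against NE cells they ranged from -0.039 to 0.91 at 8-S and from -0.67 to 0.36 at 3-S. Between stages they ranged from -0.070 to 0.41 for rfx6 in RA, from -3.17 to 0.81 for rfx6 and from -0.042 to 2.02 for neurog1 in BMS493, and from -0.15 to 0.52 for myt1 and from -0.11 to 0.63 for neurog1 in NE cells. Between stages, rfx6 in RA was at -0.030 with total-count size factors, and myt1 in NE cells at -0.0077 with edgeR and -0.0078 with TMM size factors.

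Calls over all genes by edgeR were within 1.5 times those of DESeq2 in the 10 comparisons within a stage (for example 560 and 782 in RA against DMSO at 3-S). Between stages edgeR called 7 genes and DESeq2 44 in DMSO, 2 and 15 in RA, 0 and 3 in BMS493, and 1 and 3 in NE cells. Leaving out 1 library gave 2 to 37 calls in RA, 1 to 34 in BMS493, 9 to 41 in DMSO and 0 to 4 in NE cells between stages, and fitting only the NE groups gave 41. For the interactions it gave 0 to 7 calls (RA, 2 with all libraries) and 0 to 2 (BMS493, 0 with all). The 1329 calls of DMSO against NE cells at 8-S numbered 817 without DMSO 8-S replicate 2 and 869 without NE 8-S replicate 3. The causes of these shifts were not tested. With 1 to 5 reads of rfx6 in the BMS493 and NE groups, its ratios have wide counting intervals, and 0 reads of neurod1 in DMSO 3-S cells allow only a lower bound.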

Other observations

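Of 16 Notch pathway and neuronal bHLH genes listed, 12 could be matched to a gene ID of the tables. Between RA and DMSO cells, 0 were higher and 1 lower at 8-S (median log2 fold change 0.56), and 1 was higher and 1 lower at 3-S (median 0.68). Over all genes tested, 2.7% were called at 8-S (median log2 fold change 0.04) and 4% at 3-S (median 0.01). The listed gene that was lower at both stages was hes6, a bHLH gene of the Hes family matched here by another gene ID than the HES6 near neurog1, with means of 1227 normalised counts in RA 8-S and 3997 in DMSO 8-S cells. The one that was higher at 3-S was the Notch ligand gene jag2b, with 655.7 in RA 3-S and 187.0 in DMSO 3-S cells. With BMS493 the Notch ligand gene dlb was lower at 8-S (27.7 in BMS493 and 132.2 in DMSO cells, log2 fold change -2.26, SE 0.44), and 0 of the 12 were called at 3-S. The shares of all genes tested that were called with BMS493 were 0.376% at 8-S and 0.168% at 3-S.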
